A study of Arabidopsis thaliana with 10 samples.

Results

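Transcript levels of 9 loci of Arabidopsis thaliana were followed along the inflorescence stem and in a stem library labelled atx1. They comprised 5 tandem genes of a proline-rich cluster on chromosome 4 (AZI1, AT4G12470; EARLI1, AT4G12480; AZI3, AT4G12490; AT4G12500 and AT4G12510) and 4 nitrilases (NIT1, AT3G44310; NIT2, AT3G44300; NIT3, AT3G44320; NIT4, AT5G22300). The loci were taken by gene identifier out of 23615 listed genes, and they had been chosen by their FPKM values, because several were higher in the library labelled atx1 than in the wild type. Their differences between that library and the wild type are therefore a description and support nothing further. Of the 9 loci, 8 had values, and AT4G12510 was not analysed here. A level of at least 1 FPKM (fragments for each kilobase of transcript, relative to all mapped fragments of the library) in at least 1 library was reached by 6 of them. AT4G12500 and NIT3 stayed under it.

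The stems were 20 cm tall and came from plants kept at 22 °C with 16 h of light and 8 h of darkness. Wild-type Col stems gave RNA-seq libraries of the top 0 to 3 cm (segment I, called WT-I), of the piece 5 to 7 cm down (segment II, WT-II) and of that 10 to 12 cm down (segment III, WT-III), and the atx1 mutant gave a library of the piece 5 to 7 cm down (atx1-II). Each group was 1 library, and the labels do not name the mutant allele. The 6 chromatin samples of the series were not analysed here. ATX1 encodes a methyltransferase for lysine 4 of histone H3, and the study asked how stem transcripts depend on it.

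AZI1, EARLI1 and their neighbours encode small secreted or membrane-associated proteins with a proline-rich stretch followed by a conserved cysteine motif of the lipid transfer type. AZI1 is known for its part in systemic acquired resistance, in which azelaic acid primes distant leaves for defence, and EARLI1 was first described as a gene induced by aluminium and by cold. Nitrilases hydrolyse nitriles to carboxylic acids. NIT1, NIT2 and NIT3 form a subgroup of the mustard family and its relatives that acts on nitriles from glucosinolate breakdown and on indole-3-acetonitrile, a precursor of the auxin indole-3-acetic acid, whereas NIT4 acts on beta-cyanoalanine, a product of cyanide detoxification.

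ATX1 (AT2G31650) itself had 4.02 FPKM in WT-I, 6.09 FPKM in WT-II, 3.54 FPKM in WT-III and 21.76 FPKM in atx1-II. It was thus highest in the library labelled as the mutant, so the targeted gene did not check that label, and every direction below that involves this library depends on it. Which stretch of the ATX1 transcript the reads came from cannot be seen in a gene-level value. The steps between low FPKM values put the depth at about 18500000 to 20300000 fragments per library. Stem tissue markers were present in all 4 libraries (summed phloem markers 82.17 to 218.49 FPKM, 2 of 2 genes), while the 3 floral markers summed to at most 1.92 FPKM and the 2 seed markers to at most 1.17. Between WT-II and the library labelled atx1-II the 2 epidermal markers summed to 355.32 and 5.64 FPKM, with PDF1 at 0.04 and listed at 0. The 4 xylem and fibre markers summed to 1407.91 and 424.88 and the 2 green tissue markers to 18976.9 and 6266.6. TGG1 and TGG2, markers of myrosin cells, summed to 7508.2 and 2490.46, and the morning clock genes CCA1 and LHY to 5.71 and 229.39. The part of these shifts in the results below was not tested, and in whole stem pieces fewer cells of a type and less RNA per cell cannot be told apart.

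In the chromosome 4 cluster, EARLI1 carried most of the transcript in the library labelled atx1-II. EARLI1 was listed at 0 in WT-I and WT-II, at 1.14 FPKM in WT-III and at 195.33 in atx1-II. Of the 4 libraries, only the one labelled atx1-II was above 2 FPKM for this gene. Without counts, a listed 0 may also be a level that was not estimated, so no fold is given against WT-II. On the log2(FPKM + 1) scale, which understates differences of low genes, EARLI1 was higher in atx1-II than in WT-II by 7.62. That was rank 2 from the top among the 18858 measured genes, those that reached 1 FPKM in at least 1 library.

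AZI1 had 0.2 FPKM in WT-I, 0.57 FPKM in WT-II, 1.6 FPKM in WT-III and 46.85 FPKM in atx1-II. Its value in atx1-II was 82.2 times that in WT-II, a log2 difference of 4.93. Unlike EARLI1, AZI1 had a non-zero value in all 3 wild-type segments, although a small one. At the estimated depth and the annotated gene length, the wild-type values of AZI1 stood for about 3, 8 and 22 fragments in segments I, II and III.

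AZI3 (AT4G12490) was listed at 0 in WT-I, at 0.08 FPKM in both lower wild-type segments, and at 6.58 FPKM in atx1-II. The value of 0.08 corresponds to about 1 fragment, so the ratio of 82.2 between atx1-II and WT-II rests on a single fragment in its denominator, and the log2(FPKM + 1) difference was 2.81. In atx1-II AZI3 was thus lower per length than AZI1 and EARLI1. AT4G12500 was listed at 0 in all 4 libraries, where 1 fragment would have been about 0.0596 to 0.0654 FPKM.

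**Figure D1:**
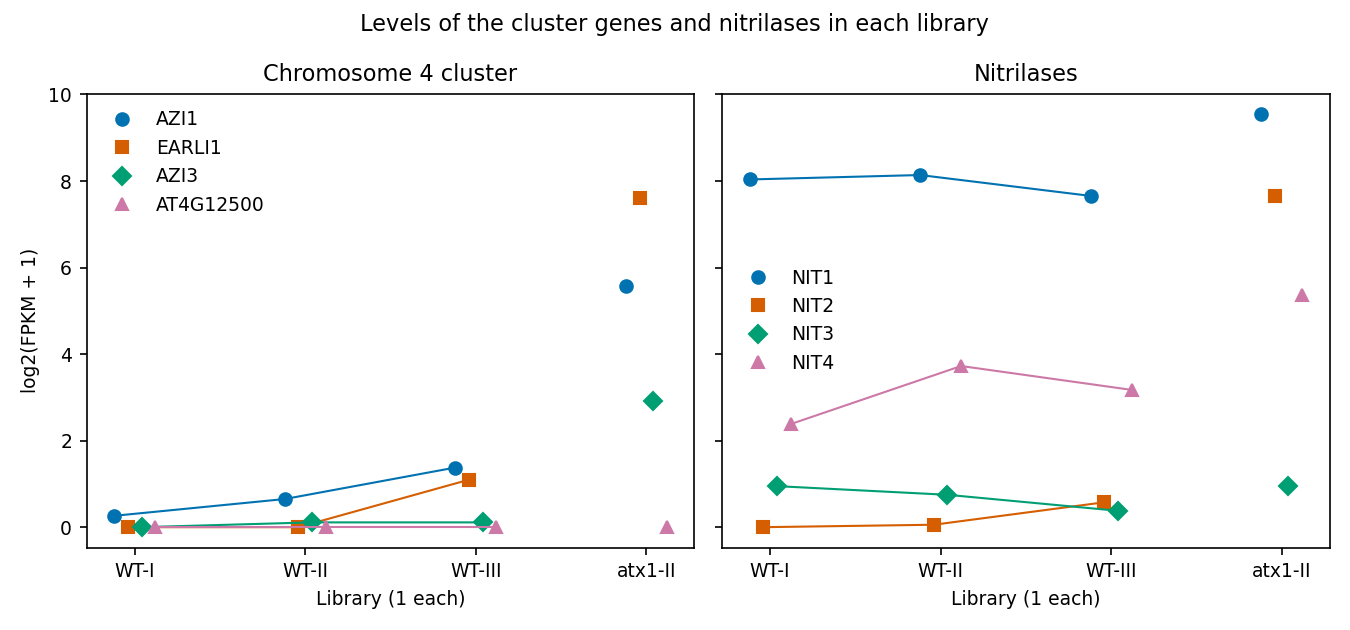
Level of each gene as log2(FPKM + 1) in each of the 4 libraries, with 1 point per gene and library and lines joining the 3 wild-type segments. EARLI1, AZI1 and AZI3 reach 195.33, 46.85 and 6.58 FPKM in atx1-II and stay at or below 1.6 FPKM in the wild type, while NIT1 is already at 200.68 to 280.76 FPKM in the wild type.

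The order of the tandem genes differed between the libraries. In atx1-II EARLI1 stood at 4.17 times AZI1 and 29.7 times AZI3, whereas in WT-III EARLI1 stood at 0.713 times AZI1. Summed over the 4 listed cluster genes, the level was 0.2, 0.65 and 2.82 FPKM in wild-type segments I, II and III and 248.76 FPKM in atx1-II. EARLI1 made up 78.5% of the sum in atx1-II, AZI1 18.8% and AZI3 2.65%. A sum over neighbours of like length depends little on how the authors' counting divided reads among those summed, a step the sources used here do not describe. The level of a single tandem gene is uncertain to that extent.

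Among the nitrilases, NIT2 had the largest difference in ratio and NIT1 the largest in amount. NIT2 was listed at 0 in WT-I and had 0.04 FPKM in WT-II, 0.49 FPKM in WT-III and 201.08 FPKM in atx1-II. The difference between atx1-II and WT-II was 7.60 on the log2(FPKM + 1) scale, next in rank (3) after EARLI1. The WT-II value is too close to 0 for a ratio to be read. NIT2 went from the lowest nitrilase in WT-I and WT-II to the second highest in the library labelled atx1-II.

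NIT1 was the abundant nitrilase of every library. It had 261.48, 280.76 and 200.68 FPKM in wild-type segments I, II and III and 746.32 FPKM in atx1-II. The value in atx1-II was 2.66 times that in WT-II, or 1.41 on the log2(FPKM + 1) scale, while the 3 wild-type segments stayed within 2-fold of each other. By level NIT1 ranked 333 among the measured genes in WT-II and 83 in atx1-II.

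NIT4, the beta-cyanoalanine enzyme, had 4.21, 12.22 and 8.02 FPKM in wild-type segments I, II and III and 40.15 FPKM in atx1-II. Its ratio of 3.29 between atx1-II and WT-II (log2 difference 1.64) was close to that of NIT1. Among the nitrilases above 1 FPKM in the wild type it was the one that passed 2-fold along the stem, with WT-II above WT-I by 1.34 on the log2(FPKM + 1) scale. NIT3, the remaining tandem copy, had 0.93, 0.68 and 0.3 FPKM in the same segments and 0.92 FPKM in atx1-II, and so did not share the high values of NIT1 and NIT2 in atx1-II.

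Within the NIT2, NIT1 and NIT3 array, NIT1 alone gave 99.6% to 99.7% of the summed level in each wild-type segment. In atx1-II it gave 78.7% and NIT2 21.2%. The sum itself was 262.41, 281.48 and 201.47 FPKM in wild-type segments I, II and III and 948.32 FPKM in atx1-II, which was 3.37 times the sum in WT-II. Of the gain of 666.84 FPKM from WT-II to atx1-II, NIT1 made up 69.8% and NIT2 30.1%, while in the cluster EARLI1 made up 78.7% of a gain of 248.11 FPKM and AZI1 18.7%.

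**Figure D2:**
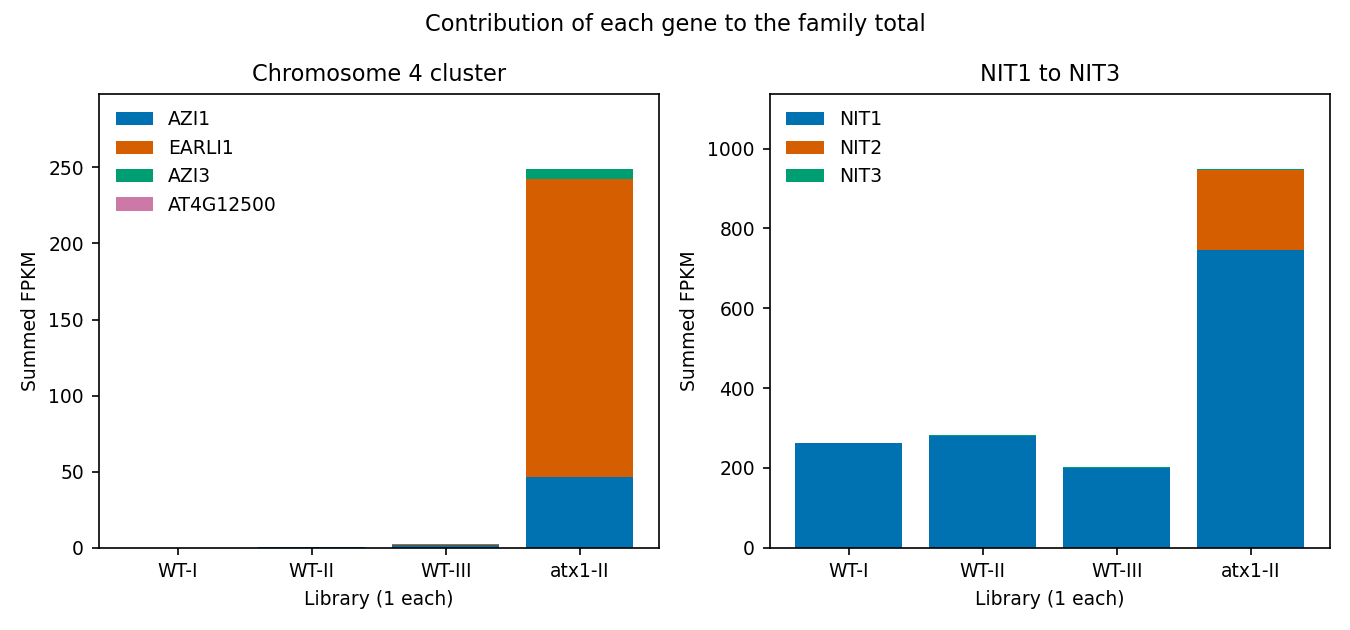
Summed FPKM of the 4 listed cluster genes (left) and of NIT1, NIT2 and NIT3 (right) in each library, on a linear axis from 0, split by gene. The cluster bar is 248.76 FPKM in atx1-II against at most 2.82 in the wild type, and NIT2 adds a visible share to NIT1 only in atx1-II.

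Counted at 2-fold, that is 1 on the log2(FPKM + 1) scale, 6 of the 6 measured loci were higher in the library labelled atx1-II than in WT-II and 0 were lower. Over all measured genes 14.1% were higher and 8.32% lower, and the median difference was 0.28 against 3.87 for the 6 loci. Because that contrast was used to choose the loci, and AZI3 and NIT2 reached 1 FPKM in atx1-II alone, nothing is read from this count. The differences ran from 1.41 for NIT1 to 7.62 for EARLI1. With WT-III in place of WT-II, again 6 of 6 were higher, from 1.89 for NIT1 to 7.08 for NIT2, and 0 lower, beside 9.61% and 9.03% of all measured genes.

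Along the wild-type stem the 6 measured loci differed by at most 1.34 on the log2(FPKM + 1) scale, which understates differences of low genes. By ratio, AZI1 in WT-III was 8 times its value in WT-I, at about 22 and 3 fragments. From segment I to II, 1 of 6 was higher by at least 2-fold (NIT4) and 0 were lower, beside 9.88% and 16.1% of all measured genes, with a median of 0.11 against -0.13 over all genes. From segment II to III, 1 of 6 was higher (EARLI1, by 1.10, from 0 to about 17 fragments) and 0 were lower, beside 2.85% and 2.35%. Between segments I and III, 2 of 6 were higher, AZI1 by 1.12 and EARLI1 by 1.10, and 0 were lower, beside 12.0% and 12.4%. These calls for AZI1 and EARLI1 concern levels of at most 1.6 FPKM and were lost with a pseudocount of 5 FPKM, where the differences between segments I and III were 0.34 and 0.30. The comparison of atx1-II with WT-II and those of WT-II with WT-I and WT-III share the library WT-II. With 1 library a group, no difference here has an error or a test.

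**Figure D3:**
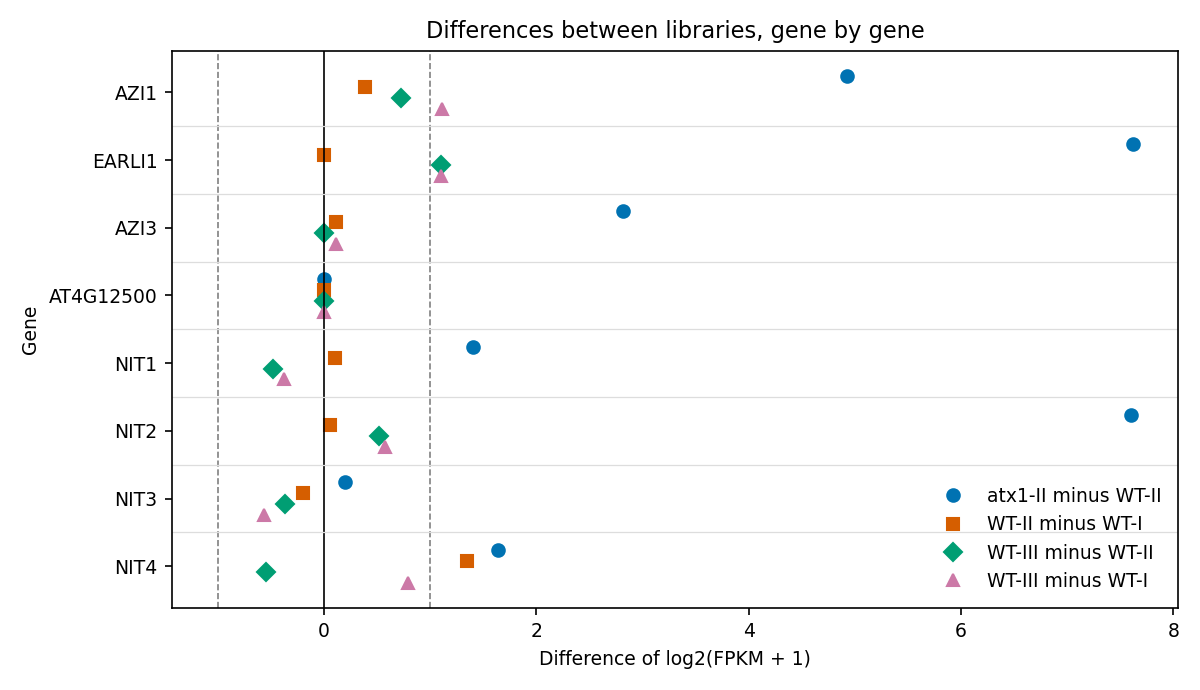
Difference of log2(FPKM + 1) for each of the 8 listed loci in 4 comparisons, with dashed lines at 2-fold. The points for atx1-II minus WT-II lie between 1.41 and 7.62 for the 6 measured loci, while the wild-type comparisons of all 8 loci lie between -0.57 and 1.34.

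The genes beside the members were compared between the same libraries. Taking the 5 annotated protein-coding genes on each side, together with interleaved ones, 6 neighbours of the cluster were measured, and 0 were higher and 0 lower by 2-fold between atx1-II and WT-II, with differences from -0.89 to 0.11 (under median-of-ratios scaling 1 was lower), beside 14.1% and 8.32% of all measured genes, so that a count of 0 among so few is no result about them. Just before AZI1, the oxysterol-binding protein gene ORP2B was at 20.7 FPKM in WT-II and 18.7 in atx1-II. Beyond AT4G12510, the cluster relatives AT4G12530 and AT4G12545 were listed at 0 in WT-I, WT-II and WT-III and were at 0.09 and 0.21 FPKM in atx1-II. AIR1 (AT4G12550), a related gene named for its induction by auxin in roots, was likewise listed at 0 in the wild type and at 0.29 FPKM in atx1-II.

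Of the 6 measured neighbours of the NIT1 to NIT3 array, 0 were higher and 0 lower, beside the same shares, with differences from -0.16 to 0.83. The uppermost was CAF1a, of the messenger RNA deadenylation machinery, at 402.74 FPKM in WT-II and 718.79 in atx1-II. Around NIT4, 6 of 9 measured neighbours were higher and 0 were lower, beside the 14.1% and 8.32% of all measured genes. They included CAF1b, a paralog of CAF1a, at 26.3 FPKM in WT-II and 177.84 in atx1-II, the NAC factor gene NAC089 at 5.1 and 18.67, and ELM1, of mitochondrial division, at 9.31 and 27.28. The NIT4 difference of 1.64 lay within the range of its neighbours, -0.14 to 2.71. EARLI1 and NIT2 lay above every measured neighbour of theirs, which their choice by this contrast had all but fixed, so nothing is read from it. The position of genes was taken from the assembly TAIR10.1 for their order alone.

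**Figure D4:**
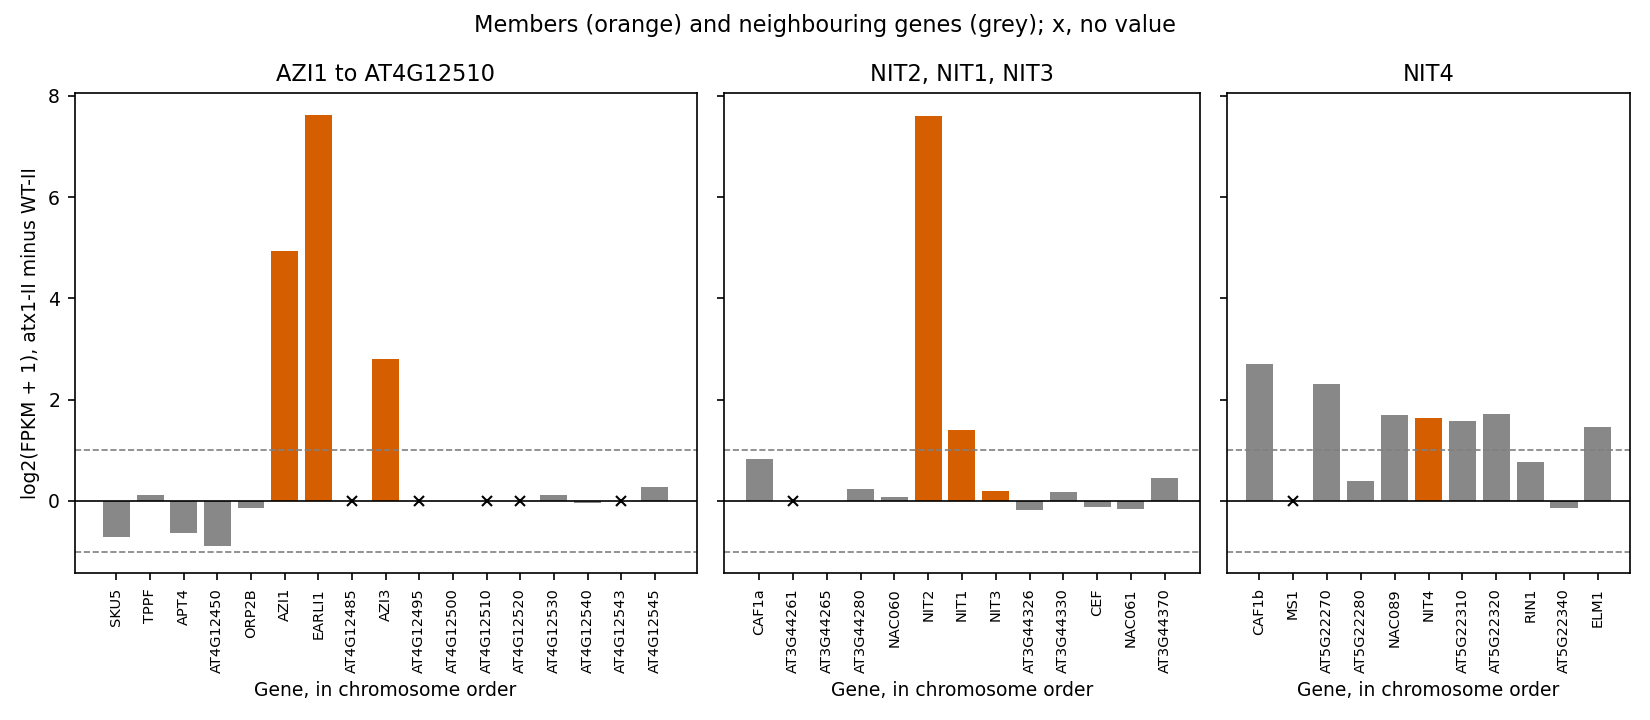
Difference of log2(FPKM + 1), atx1-II minus WT-II, for the members (orange) and the genes beside them (grey) in chromosome order, with dashed lines at 2-fold and crosses for genes without a value. EARLI1 at 7.62 and NIT2 at 7.60, both chosen by this contrast, stand beside neighbours within 2-fold. Of the 9 measured neighbours of NIT4, 6 are above 2-fold.

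EARLI1 and NIT2 had nearly the same profile over the 4 libraries although they belong to different families. Likeness was measured as the distance between log2(FPKM + 1) profiles, each centred on its own mean, among 12597 genes that reached 10 FPKM in some library. NIT2 was the gene nearest to EARLI1 and EARLI1 the gene nearest to NIT2, at a distance of 0.48. Both had been selected for the same contrast, so this describes the 4 values and nothing more.

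After NIT2, the genes nearest to EARLI1 were PLA2A, a patatin-like lipid acyl hydrolase gene, at a distance of 0.68, AT1G23130 (0.76), the extensin gene EXT4 (0.79) and the plant defensin gene PDF1.2 (0.90). PLA2A had 0.07, 0.8 and 2.26 FPKM in wild-type segments I, II and III and 200.6 FPKM in atx1-II. The genes nearest to NIT2 after EARLI1 were PDF1.2 (0.50), AT1G15125 (0.71), EXT4 (0.86) and DIN11 (0.89), named for its induction in darkness. PDF1.2 was listed at 0 in the 3 wild-type libraries and was at 144.11 FPKM in atx1-II. AZI1, at rank 30 from both EARLI1 and NIT2, was less like them (2.13 and 2.31), and NIT4 and NIT1 were at ranks 323 and 687 from NIT2.

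Other genes of the proline-rich family went both ways. Of 19 listed relatives outside the cluster, 10 were measured, and 3 were higher and 3 lower in the library labelled atx1-II than in WT-II, beside 14.1% and 8.32% of all measured genes, with a median of 0.00 beside 0.28 over all genes (2 higher and 3 lower under median-of-ratios scaling). AT2G10940 had 1060.11, 62.6 and 0.31 FPKM in wild-type segments I, II and III and 0.67 FPKM in atx1-II. AT4G00165 was at 60.76, 51.36, 20.83 and 3.63 FPKM in the same order, and AT4G22470 was at 0.21, 0.09, listed at 0, and 4.2, a run of values like that of AZI3. It reached 1 FPKM in atx1-II alone, and without it 2 of 9 were higher. In the wild type these relatives ran downward along the stem, with 8 of 10 lower in segment III than in segment I and 0 higher, beside 12.4% and 12.0% of all genes. Of those 8, AT1G62500, AT4G15160 and AT4G22460 had low values throughout and reached 1 FPKM in WT-I alone, at 2.39, 2.14 and 1.74 FPKM. The filter had thus all but fixed their direction, and the count of 8 includes them. Of the 3 measured cluster genes 2 were higher, at levels of at most 1.6 FPKM, and both calls were lost with a pseudocount of 5 FPKM.

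Scaling the libraries by the median of ratios shifted the median difference of all genes between atx1-II and WT-II from 0.28 to 0.03. It turned the median of none of the 7 further lists below to the other side of 0, but left the cold list with 1 gene higher, the camalexin list with 5 and the glucosinolate list with 4 lower.

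Each list count between atx1-II and WT-II below is to be read beside the 14.1% of all measured genes that were higher, the 8.32% that were lower and the median of 0.28. Genes of systemic resistance, the process in which AZI1 takes part, went both ways, with 4 of 20 measured higher in atx1-II than in WT-II and 2 lower (median -0.09), shares near those of all genes. The glucanase gene PR2, listed as BGL2, was at 13.25 FPKM in WT-II and 114.83 in atx1-II, and the calmodulin-binding regulator gene CBP60G at 10.76 and 65.43. Its paralog SARD1 was lower, at 30.67 and 3.73. In WT-III PR2, CBP60G and SARD1 were at 62.19, 61.06 and 44.5 FPKM, so CBP60G was about as high there as in atx1-II. Against WT-III, 2 of 20 genes of this list were higher in atx1-II and 3 lower (median -0.04), beside 9.61% and 9.03% of all measured genes. ALD1 and FMO1, enzymes of pipecolic acid signalling, reached at most 0.37 FPKM in any library, and PR1, one of the 4, was at 3.66 FPKM in atx1-II and listed at 0 in the wild type, so it was measured through atx1-II alone. In the cold response list, relevant to EARLI1 as a cold-induced gene, 3 of 10 were higher and 1 lower (median 0.48). CBF3, listed as DREB1A, was at 0.58 FPKM in WT-II and 7.0 in atx1-II, KIN2 at 41.78 and 90.73, and KIN1 at 3.44 and 0.31. In WT-III they were at 1.88, 129.83 and 1.69 FPKM, so KIN2 was higher there than in atx1-II. Against WT-III, 2 of 10 genes of the cold list were higher in atx1-II and 1 lower (median 0.03), beside 9.61% and 9.03% of all measured genes.

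Genes of the route through indole-3-acetonitrile, a nitrile on which nitrilases can act, were compared in the same way. Of 8 measured genes of the indole-3-acetaldoxime and camalexin route, 6 were higher in the library labelled atx1-II and 0 lower (median 1.50), beside 14.1% and 8.32% of all measured genes. PAD3, CYP71A12 and CYP71A13 reached 1 FPKM in atx1-II alone and so had to be higher there, which also raises the median. Of the other 5 genes 3 were higher. Among those 3, CYP71B6 was barely past 2-fold (1.02, at 24.8 and 51.34 FPKM) and fell short of it under median-of-ratios scaling. GSTF6, a glutathione transferase gene, was at 2.06 FPKM in WT-II and 582.08 in atx1-II, and shares high similarity with GSTF7, so its level is uncertain. PAD3, of the last step to camalexin, was at 0.22 and 14.69. CYP71A12, which forms indole-3-acetonitrile from the oxime, was listed at 0 in WT-II and was at 5.56 in atx1-II. The entry enzymes CYP79B2 and CYP79B3 lay within 2-fold, at 75.98 and 105.66 FPKM in WT-II and 47.7 and 174.99 in atx1-II. Along the wild-type stem the same list had 5 of 8 higher and 0 lower in segment III than in segment I, beside 12.0% and 12.4% of all measured genes. CYP79B3 was at 62.74 FPKM in segment III and 1.69 in segment I.

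Among genes of glucosinolate breakdown, which can yield nitriles, 1 of 8 was higher and 3 were lower (median -0.73), beside 14.1% and 8.32% of all measured genes. The myrosinase gene TGG1, also a marker of myrosin cells, was at 2235.66 FPKM in WT-II and 727.68 in atx1-II. PEN2, an atypical myrosinase of indole glucosinolates, was the higher one, at 42.16 and 129.64, and ESM1, which is known to limit nitrile formation, was at 2.92 and 0.3. The specifier genes NSP1 and ESP lay within 2-fold, and NSP5, at 69.94 and 35.14 FPKM, was just short of 2-fold lower (-0.97). TGG2, the other main myrosinase gene, was at 5272.54 and 1762.78.

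The auxin synthesis list holds genes of the indole-3-pyruvate route, the main one in plants, and the amidase gene AMI1, which is outside that route. It had 0 of 4 measured genes past 2-fold in either direction (median 0.12). TAR2, an aminotransferase gene, was at 1.38 FPKM in WT-II and 1.87 in atx1-II, AMI1 at 62.28 and 68.64, and YUC6, a flavin monooxygenase gene, at 0.16 and 0.24. TAA1 was listed at 0 in both libraries. The genes of the route itself were thus too low in these libraries for the count to be a result about it. In auxin conjugation and oxidation 1 of 6 was higher and 0 lower (median 0.59), a share near the 14.1% of all genes. That gene was GH3.3, which joins auxin to amino acids, at 0.37 and 10.69 FPKM, and it reached 1 FPKM in atx1-II alone, while the amidohydrolase genes ILL2 (15.21 and 25.01) and ILR1 (4.26 and 7.09) lay within 2-fold.

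Beside NIT4, genes that release or detoxify cyanide had 2 of 8 higher and 0 lower in atx1-II than in WT-II (median 0.25), beside 14.1% and 8.32% of all measured genes and their median of 0.28. EFE (AT1G05010), an oxidase of the last step of ethylene synthesis, which releases cyanide, was at 20.79 FPKM in WT-II and 345.31 in atx1-II. CYSD2, of the cysteine synthase family, was at 11.51 and 38.86. CYSC1, the mitochondrial cyanoalanine synthase that makes the substrate of NIT4, lay within 2-fold at 275.01 and 407.15. The direction of each of these lists against WT-II rests on the same single library as that of the 9 loci.

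**Figure D5:**
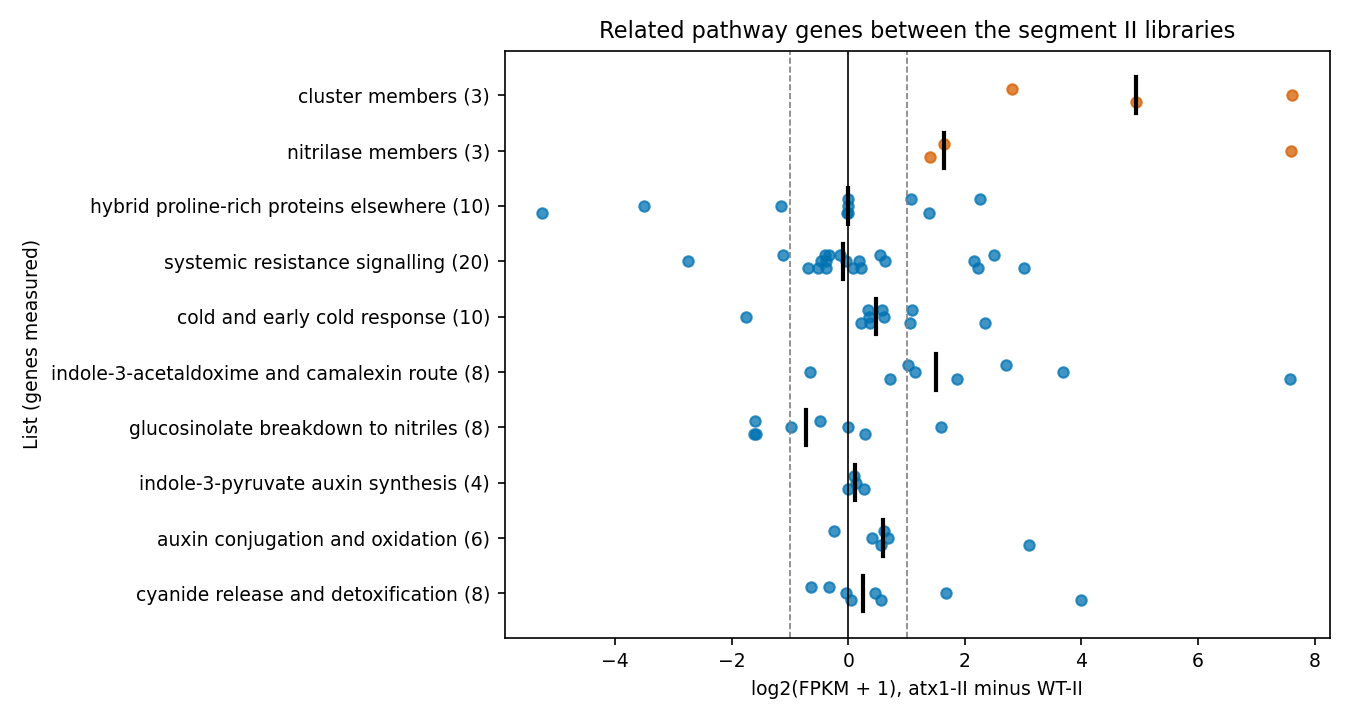
Difference of log2(FPKM + 1), atx1-II minus WT-II, for each measured gene of the members (orange) and of 8 related lists (blue), with black bars at the medians, dashed lines at 2-fold and the number measured in parentheses. The indole-3-acetaldoxime and camalexin list has the highest median of the related lists (1.50) and glucosinolate breakdown the lowest (-0.73). In the camalexin list 3 of the 8 genes reached 1 FPKM in atx1-II alone, which raises its median.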

How the data were processed

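RNA-seq of 4 stem libraries was used, 1 per group. The values are FPKM per gene to 2 decimals as deposited by the authors, per the file headers. Trimmomatic, HISAT, Bowtie2, RSEM and the build TAIR10 are named in the submitters' processing notes, with no roles or versions. Of 23615 identifiers, 23238 matched the RefSeq table of TAIR10.1, used for names and gene order. Differences of log2(FPKM + 1) were taken with Python 3.11.15 and pandas 2.3.3, for genes with at least 1 FPKM in at least 1 library, and called at 2-fold. The calling step was checked on simulated folds without noise, which a fixed threshold must recover. That check does not bear on noisy or low values. Without replicates there is no test.

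The loci and the 9 gene lists were chosen with earlier results of these data known. Named are all loci and ATX1, up to 3 genes per list with the largest difference between atx1-II and WT-II, the 5 genes nearest by profile to EARLI1 and to NIT2, and neighbours by position. One gene that this rule names is not reported here. Neighbours given with values, and PR1, ALD1, FMO1, CYP71A13, CYP79B2, CYP79B3, TGG2, NSP1, NSP5, ESP, TAA1, CYSC1 and the clock genes, were chosen after their values were seen. A list of 4 relatives beside the cluster had 3 with values and 0 measured.

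Depth was estimated from genes of 250 to 900 bp with values under 1 FPKM, of which 69.1% to 71.8% lay within 0.15 of a whole fragment. By chance 30% would, before allowing for the step having been fitted on them. The annotated length of a gene was taken for its transcript, less 140 bp, so fragment numbers are approximate.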

Additional observations from a re-analysis of the deposited data

How the results depend on the processing

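All 6 measured loci stayed at least 2-fold higher in atx1-II than in WT-II with pseudocounts of 0.1 and 5 FPKM, with no filter, with a filter of 5 FPKM, under median-of-ratios scaling, after rescaling each library to a common sum and against WT-III. The log2 difference ran from 5.32 to 10.9 for EARLI1, 5.35 to 10.5 for NIT2, 3.22 to 6.13 for AZI1, 1.19 to 5.21 for AZI3, 1.37 to 2.19 for NIT4 and 1.12 to 1.89 for NIT1. Calling at 4-fold was added after seeing the data and left out NIT1 and NIT4. No difference of a locus that passed 2-fold changed sign. The loci were chosen by the contrast of atx1-II with WT-II, and every setting used the same atx1-II library. Their stability in that contrast is therefore no further support for it. In the wild type, higher loci numbered 2 from I to II and 3 from II to III with a pseudocount of 0.1, and 0 in each comparison with a pseudocount of 5 or at 4-fold; the values concerned are near 0, except NIT4 (0.90 from I to II with a pseudocount of 5). No paired analysis was possible because each group has 1 library.

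The counts over all genes moved more. With a pseudocount of 5, higher and lower genes were 1240 and 893 for atx1-II against WT-II, 1065 and 1586 for WT-II against WT-I, 149 and 203 for WT-III against WT-II, and 1319 and 1372 for WT-III against WT-I. At 4-fold they were 534 and 365, 518 and 613, 31 and 50, and 676 and 574 in the same order. With a pseudocount of 0.1, WT-III against WT-II had 1263 and 796. Median-of-ratios scaling gave 1698 higher and 2248 lower for atx1-II against WT-II, where the deposited scale gave 2665 and 1569 and the median of all genes moved from 0.28 to 0.03, and 310 and 748 for WT-III against WT-II, where it gave 538 and 444. The median of all genes for WT-II against WT-I moved from -0.13 to 0.02 under that scaling. Low values rest on few fragments, and without replicates the error of the wild-type differences of the cluster genes and NIT2 cannot be estimated.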
